A study of Mus musculus with 22 samples.

Results

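The semaphorins, their plexin and neuropilin receptors and the plexin domain genes Plxdc1 and Plxdc2 were followed through developing cell types of the mouse retina. Genes were taken by symbol from the 13812 rows of the deposited expression table, as any symbol of Sema followed by a digit or starting with Plxn, together with Nrp1, Nrp2, Plxdc1 and Plxdc2. This gave 31 genes: 20 semaphorins, 7 plexins, 2 neuropilins and 2 plexin domain genes. All 31 passed the filter on low values. Plxnd1 and Plxnb3 were not analysed here.

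RNA came from sorted retinal cells labelled as bipolars at P7, P13 and P30 (postnatal days), rod bipolars at P13, cone bipolars at P13, rods at P7, P13 and P30, and cones at P7, P13 and P30. Each of these 11 groups has 2 libraries, 22 in all, and the design text of the series calls the bipolar cells ON-bipolars. The sources used here state no strain or genotype, nor how cells were marked for sorting. RNA was linearly amplified before library preparation with a TruSeq v2 kit, and levels are given as CPM, read counts scaled by the authors to a common library size.

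Semaphorins are cell guidance cues, secreted in class 3, membrane-spanning in classes 4 to 6 and held by a lipid anchor in Sema7a. Plexins are their receptors and act on small GTPases of the Rap family, and neuropilins are the co-receptors through which most class 3 semaphorins bind plexins. In the mouse inner retina, Sema6a with Plxna2 and Plxna4, and Sema5a and Sema5b with Plxna1 and Plxna3, are known to steer neurites into their layers.

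The labels were checked against summed marker levels. Bipolar markers summed to 5549 to 7645 CPM in bipolars, 18152 to 21346 CPM in rod bipolars, 6369 to 6907 CPM in cone bipolars, 3.85 to 26.4 CPM in rods and 212 to 521 CPM in cones. Much of the cone sum was Cabp5, which averaged 283 CPM in cones at P13, where Grm6, the receptor that defines ON-bipolars, averaged 21.6 CPM. Rod markers summed to 14569.5 to 30102 CPM in rods and 3215 to 9441 CPM in cones, and cone markers to 23.5 to 322 CPM in rods and 15935 to 51671 CPM in cones. In bipolars the Müller glia markers summed to 208 to 223 CPM at P7, 856 to 1103 CPM at P13 and 5034 to 7879 CPM at P30. Vascular markers there summed to 27.0 to 30.2, 91.7 to 103 and 509 to 686 CPM at these ages, and microglial markers to 4.07 to 5.77, 39.1 to 39.4 and 154 to 359 CPM. Amacrine markers summed to 155 to 228, 72.4 to 273 and 348 to 406 CPM in bipolars at these ages. Their sums were 22.7 to 146 CPM in rod bipolars, 33.9 to 95.5 CPM in cone bipolars, 7.92 to 20.0 CPM in rods and 6.75 to 70.7 CPM in cones. The part of amacrine RNA in the bipolar levels was not tested. Recovered read totals ran from 14.4 to 54.4 Mreads per library. The labels do not tie libraries to animals. Every p-value below reflects only how far libraries of the same group spread, which may be technical.

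The 250 bases before the start are shown for members called higher in bipolars at all 3 ages (adjusted p under 0.05, log2 change of at least 1). Those shown have 1 listed start and no annotated exon of the 31 genes in that window. Exons of other genes were not checked. Sema7a, which was higher in photoreceptors at P7, is shown as well. The windows are from RefSeq (GRCm38.p6) and read 5′ to 3′ on the gene's strand. Capitals mark, on either strand, the letters TAATCC and TAATTA (homeobox cores), CAGATG and CAGCTG (E-boxes) and GGGCGG (a GC box); both strands were searched for each motif, and no matches overlapped in these windows. The windows lie at chr5:12382916-12383165 (+ strand), chr5:14025026-14025275 (+), chr6:82939770-82940019 (- strand), chrX:74328816-74329065 (+) and chr9:57939862-57940111 (+).
Sema3d: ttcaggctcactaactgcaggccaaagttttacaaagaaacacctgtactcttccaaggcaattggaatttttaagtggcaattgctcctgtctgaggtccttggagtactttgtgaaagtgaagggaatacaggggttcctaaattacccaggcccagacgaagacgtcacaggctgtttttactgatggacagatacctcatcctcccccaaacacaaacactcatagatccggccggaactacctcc
Sema3e: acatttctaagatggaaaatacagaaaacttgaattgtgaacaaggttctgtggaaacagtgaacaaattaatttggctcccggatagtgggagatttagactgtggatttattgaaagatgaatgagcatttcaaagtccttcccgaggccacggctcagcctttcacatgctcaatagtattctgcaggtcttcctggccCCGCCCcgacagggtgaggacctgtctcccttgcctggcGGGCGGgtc
Sema4f: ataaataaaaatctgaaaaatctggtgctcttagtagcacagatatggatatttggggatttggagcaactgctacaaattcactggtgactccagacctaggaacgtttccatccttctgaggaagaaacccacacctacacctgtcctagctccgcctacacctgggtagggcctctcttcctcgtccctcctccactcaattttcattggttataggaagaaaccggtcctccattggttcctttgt
Plxna3: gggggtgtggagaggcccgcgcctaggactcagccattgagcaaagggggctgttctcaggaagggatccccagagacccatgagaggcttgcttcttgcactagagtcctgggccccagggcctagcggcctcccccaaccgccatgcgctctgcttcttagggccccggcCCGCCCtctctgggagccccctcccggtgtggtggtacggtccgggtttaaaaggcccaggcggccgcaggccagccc
Sema7a: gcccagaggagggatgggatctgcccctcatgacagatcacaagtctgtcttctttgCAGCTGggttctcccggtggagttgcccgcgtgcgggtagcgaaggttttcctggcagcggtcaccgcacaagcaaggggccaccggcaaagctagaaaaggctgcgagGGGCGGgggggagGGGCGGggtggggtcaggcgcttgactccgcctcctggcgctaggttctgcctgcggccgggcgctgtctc
Of these windows Sema3e and Sema7a hold 2 GC boxes each, Plxna3 holds 1, Sema7a also holds 1 CAGCTG, and Sema3d and Sema4f hold none of the 5 motifs. GC content was 46.8% for Sema3d, 48.0% for Sema3e, 46.0% for Sema4f, 68.0% for Plxna3 and 66.4% for Sema7a. The median over the windows of all genes was 52.4%. RefSeq lists 35 windows for 24 of the 31 genes. Some genes have several, 4 for Sema4a and 3 for Sema4d, so the windows are not separate genes. Of the 35 windows, 26 (74.3%) hold a GC box, against 32.7% of the 32851 windows of all genes. The Crx/Otx core TAATCC was in 0 of the 35 windows, against 6.25% of all windows, and TAATTA in 0, against 4.84%. CAGATG was in 2 of the 35 (5.71%), against 14.4% of all windows, and CAGCTG in 5 (14.3%), against 13.001%. These are matches of letters, not binding sites.

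Summed semaphorin transcripts were highest in bipolars at P7, and lower there at each later age. Sema5b alone averaged 327 CPM in bipolars at P7 and 210 CPM at P13, and its lower P30 values are given below. The 20 semaphorins summed to 755 ± 9.72 CPM in bipolars at P7, 550.4 ± 27.3 CPM at P13 and 382 ± 58.7 CPM at P30 (mean ± SD, n = 2). The same sum was 421 ± 7.32 CPM in rod bipolars and 517 ± 19.1 CPM in cone bipolars. Rods summed to 131 ± 61.3, 81.8 ± 12.4 and 133 ± 24.6 CPM at P7, P13 and P30, and cones to 191 ± 64.6, 135 ± 27.4 and 82.3 ± 0.261 CPM. For the 7 plexins rods were above bipolars at each age, and Plxna2 alone averaged 277, 376 and 133 CPM in rods. Plexins summed to 384 ± 10.2, 245 ± 13.3 and 192 ± 34.4 CPM in bipolars at the 3 ages, to 475 ± 82.0, 448 ± 225 and 248 ± 28.5 CPM in rods, and to 257 ± 50.6, 139 ± 12.2 and 147 ± 8.75 CPM in cones. No family sum was tested.

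The leading gene changed with cell type and age. Per kilobase of merged exon, Sema5b led in bipolars at P7 (46.2 CPM per kb) and at P13 (29.6), while at P30 Sema3e (6.93), Sema4g (6.84) and Plxdc2 (6.75) lay close together. Plxna2 led in rods at P7 (16.1 CPM per kb) and P13 (21.9), and Sema3f led at P30 (13.3). In cones Sema3f and Sema7a were close at P7 (11.3 and 11.3 CPM per kb) and at P13 (8.80 and 9.23). At least 10 CPM was reached by 20, 18 and 19 of the 31 genes in bipolars at P7, P13 and P30, by 7, 4 and 5 in rods, and by 10, 8 and 6 in cones.

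**Figure D1:**
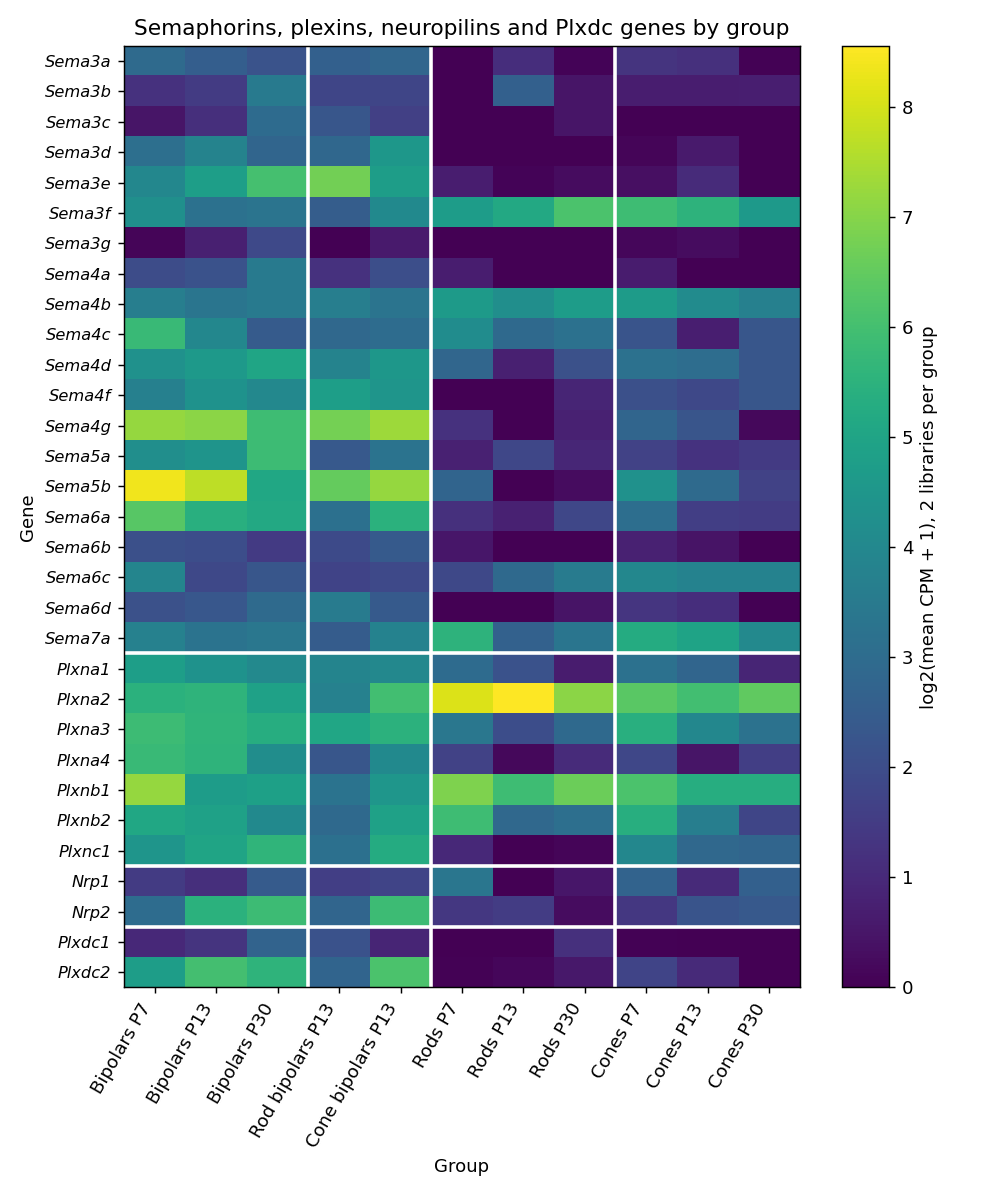
Mean level of each of the 31 genes (rows, grouped as semaphorins, plexins, neuropilins and Plxdc genes) in the 11 groups (columns), as log2 of the mean CPM of 2 libraries plus 1. The bipolar columns are bright for Sema5b and Sema4g, the rod columns for Plxna2, and Sema3f is brighter in the rod and cone columns than in bipolars at P13 and P30.

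The 2 libraries of a group could differ widely in rods and cones. Among members with at least 1 CPM in either library, those whose libraries were 10-fold or more apart numbered 0 in bipolars at each age, 2 of 30 in rod bipolars and 0 of 29 in cone bipolars. They numbered 5 of 20, 6 of 15 and 2 of 15 in rods at P7, P13 and P30, and 0 of 24, 6 of 23 and 9 of 20 in cones. Among all genes at 1 CPM or more, such shares were 7.25%, 13.5% and 4.17% in rods at P7, P13 and P30. They were 1.05%, 6.85% and 10.8% in cones and 0.0764%, 1.69% and 2.83% in bipolars at these ages. Rod bipolars had 6.82% and cone bipolars 2.16%. One model over all 22 libraries shares 1 spread per gene between these groups, and this sets the standard errors below. A fold change is log2 of CPM on the deposited scale, given as ± SE with n = 2 libraries a group, and a call needs both an adjusted p under 0.05 (limma, Benjamini-Hochberg over 13405 genes) and a log2 change of 1 or more, up or down. Where a compared group held 3 reads or fewer, the size of the fitted value depends on the small number added before the log, and it is printed as the value that was tested, not as a measured fold. For several such pairs a fold is given too, as a bound from a floor of 3 reads over both libraries where the lower group had no read, or as a ratio of summed reads with an exact 95% interval where it had 1 to 3. Floors, bounds and intervals cover counting error only. In bulk libraries, fewer cells of a type and less RNA per cell cannot be told apart.

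Many members were higher in bipolars than in photoreceptors, the photoreceptor level being taken as the mean of the rod and cone group means of log2 CPM. On this scale a rod or cone group near the floor lowers the photoreceptor level more than it would a mean of CPM. At P7, 14 of 31 were called higher, where 11.6% of all genes were, and 2 lower, against 11.1%. At P13, 20 were higher, against 20.6% of all genes, and 2 lower, against 12.8%. At P30, 21 were higher, against 22.6%, and 3 lower, against 13%. The median log2 fold change of the 31 genes was 3.49 at P7, 5.19 at P13 and 5.81 at P30, or 3.31, 4.73 and 5.47 with groups without reads set to the floor. All genes had medians of 0.12, 0.18 and 0.13 at these ages. Scaling by plain read totals moved the all-gene medians to 0.27, 0.65 and 0.55.

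Sema5b, a membrane-spanning semaphorin with thrombospondin repeats, had the highest level per kilobase of any of the 31 genes in a group, in bipolars at P7. It had 328 and 327 CPM at P7, 188 and 231 CPM at P13 and 32.1 and 35.0 CPM at P30 in bipolars. Rods had 6.88 and 4.58 CPM at P7, 0 and 0 CPM at P13 and 0.407 and 0 CPM at P30, and cones had 28.0 and 10.3 CPM at P7, 9.07 and 4.46 CPM at P13 and 4.32 and 0.0589 CPM at P30. Every bipolar library was above every rod and cone library of its age, and no read of Sema5b was found in rods at P13. The log2 fold change was 5.07 ± 1.40 at P7, 9.92 ± 1.40 at P13 and 7.61 ± 1.40 at P30 (adjusted p = 0.0121, 4.64e-05 and 4.77e-04). At P13 bipolars were at least 4767-fold higher than rods.

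Sema4g, a membrane-spanning class 4 semaphorin, was the next most abundant ligand of bipolars per kilobase at P7 and P13. Its levels in bipolars were 152 and 143 CPM at P7, 135 and 135 CPM at P13 and 48.8 and 69.8 CPM at P30. Rods had 2.01 and 0.680 CPM at P7, 0 and 0.0252 CPM at P13 and 1.22 and 0.260 CPM at P30, and cones had 8.98 and 2.83 CPM at P7, 2.60 and 4.89 CPM at P13 and 0 and 0.294 CPM at P30. The groups did not overlap at any age. Bipolars over photoreceptors gave 5.92 ± 1.13 at P7, 9.17 ± 1.13 at P13 and 8.48 ± 1.13 at P30 (adjusted p = 9.50e-04, 1.32e-05 and 2.75e-05). Rods at P13 held 1 read of Sema4g, against which bipolars were higher by 9199-fold (95% interval 1650.4 to 363406).

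Sema6a, the ligand of Plxna2 and Plxna4 in the inner retina, had 78.0 and 80.3 CPM at P7, 41.1 and 41.1 CPM at P13 and 22.9 and 47.1 CPM at P30 in bipolars. Rods had 1.28 and 1.32 CPM at P7, 0.703 and 0.730 CPM at P13 and 4.41 and 0.595 CPM at P30, and cones had 7.25 and 7.98 CPM at P7, 3.22 and 0.739 CPM at P13 and 3.64 and 0.118 CPM at P30. Each bipolar library stood above each photoreceptor library of its age. Fold changes on the log2 scale were 4.65 ± 1.04 at P7, 5.28 ± 1.04 at P13 and 4.97 ± 1.04 at P30 (adjusted p = 0.00325, 8.98e-04 and 0.00134).

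Sema3e, a secreted cue that binds Plxnd1 without a neuropilin, had 14.0 and 15.4 CPM at P7, 36.7 and 16.4 CPM at P13 and 72.4 and 56.2 CPM at P30 in bipolars. Rods had 0 and 1.18 CPM at P7, 0.0703 and 0.0503 CPM at P13 and 0.430 and 0 CPM at P30, and cones had 0.559 and 0 CPM at P7, 0 and 2.12 CPM at P13 and 0 and 0 CPM at P30. Bipolar levels were highest at P30, and both cone libraries of that age held no read. Bipolars over photoreceptors came to 7.57 ± 2.33 at P7, 8.07 ± 2.33 at P13 and 11.62 ± 2.33 at P30 (adjusted p = 0.0225, 0.0120 and 9.64e-04), and at P30 bipolars were at least 1264-fold higher than cones.

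The class 3 semaphorin Sema3d and the class 4 member Sema4f, both shown above by their start regions, were also low in photoreceptors. Over all 11 groups, Sema3d was highest in cone bipolars (22.2 CPM). Sema4f was highest in rod bipolars (26.9 CPM), followed by cone bipolars (20.8 CPM). Sema3d had 6.24 and 9.04 CPM at P7, 13.8 and 12.7 CPM at P13 and 6.99 and 4.73 CPM at P30 in bipolars. Rod values ran from 0 to 0.0186 CPM and cone values from 0 to 1.10 CPM, so that all bipolar libraries lay above them. Bipolars were at least 243-fold higher than rods at P7 and at least 302-fold at P13, and at least 115-fold higher than cones at P30. The fitted log2 values, each with a group at 0, were 8.87 ± 1.65 at P7, 9.02 ± 1.65 at P13 and 9.17 ± 1.65 at P30 (adjusted p = 7.72e-04, 4.86e-04 and 4.08e-04). Sema4f had 12.5 and 12.3 CPM at P7, 16.2 and 22.6 CPM at P13 and 13.4 and 16.1 CPM at P30 in bipolars, 0 and 0 CPM at P7, 0 and 0.0252 CPM at P13 and 0.0905 and 1.64 CPM at P30 in rods and 5.20 and 1.41 CPM at P7, 0.533 and 4.72 CPM at P13 and 5.85 and 2.03 CPM at P30 in cones. For Sema4f the log2 fold changes were 6.46 ± 1.16 at P7, 6.93 ± 1.16 at P13 and 3.65 ± 1.16 at P30 (adjusted p = 5.63e-04, 2.24e-04 and 0.0187), the smallest at P30, where one rod library and both cone libraries held it above 1 CPM. Against rods alone, bipolars were at least 394-fold higher at P7, where rods had no read, and higher by 1325-fold (95% interval 237 to 52381) at P13, where rods had 1.

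Sema5a, the close relative of Sema5b, had 20.9 and 14.9 CPM at P7, 17.9 and 22.9 CPM at P13 and 41.7 and 73.5 CPM at P30 in bipolars, highest at P30, the age of the highest Müller glia sum. At P13 it averaged 4.20 CPM in rod bipolars and 8.53 CPM in cone bipolars, both below the 20.4 CPM of bipolars. Rods had 0 and 1.42 CPM at P7, 5.06 and 0 CPM at P13 and 0.838 and 0.967 CPM at P30, and cones had 3.37 and 1.01 CPM at P7, 0 and 2.75 CPM at P13 and 1.48 and 1.97 CPM at P30. Its only call was 6.94 ± 2.44 at P13 (adjusted p = 0.0327), although bipolar libraries were above all photoreceptor libraries at every age. The other values were 5.34 ± 2.44 at P7 and 5.47 ± 2.44 at P30 (adjusted p = 0.116 and 0.0812). Neither age step in bipolars nor an interaction was called for Sema5a.

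Among the other class 4 members, Sema4d, the ligand of Plxnb1, had 18.8 and 19.0 CPM at P7, 21.05 and 24.9 CPM at P13 and 26.2 and 37.7 CPM at P30 in bipolars, 3.97 and 8.16 CPM at P7, 1.41 and 0 CPM at P13 and 4.28 and 2.36 CPM at P30 in rods and 7.98 and 8.49 CPM at P7, 8.05 and 6.70 CPM at P13 and 1.44 and 6.33 CPM at P30 in cones. Its call was 4.73 ± 1.32 at P13 (adjusted p = 0.00992). Sema4c, a ligand of Plxnb2, had 60.6 and 48.9 CPM at P7, 12.6 and 16.2 CPM at P13 and 4.65 and 4.25 CPM at P30 in bipolars, the highest values at P7. Rods had 12.2 and 21.4 CPM at P7, 10.96 and 2.16 CPM at P13 and 9.42 and 6.67 CPM at P30, and cones had 4.16 and 3.14 CPM at P7, 0.672 and 0.637 CPM at P13 and 7.25 and 0.530 CPM at P30. Sema4c was called higher in bipolars at the first 2 ages, with 2.83 ± 0.84 at P7 and 2.99 ± 0.84 at P13 (adjusted p = 0.0182 and 0.01003), and at P30 the bipolar values lay within the range of the cones. Its exons share 334 bp with D430040D24Rik on the other strand, and the libraries do not keep strand. Sema4a had 2.98 and 3.05 CPM at P7, 3.05 and 3.88 CPM at P13 and 6.96 and 13.6 CPM at P30 in bipolars, against 0 to 0.662 CPM in rods and 0 to 0.577 CPM in cones, with fitted log2 values of 8.35 ± 1.08 at P13 and 9.71 ± 1.08 at P30 (adjusted p = 2.00e-05 and 4.58e-06). Bipolars were at least 95.2-fold higher than cones at P13 and at least 336-fold higher than rods at P30, groups in which Sema4a had no read.

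Less abundant ligands were also called. Sema6d, a ligand of Plxna1, had 3.91 and 2.83 CPM at P7, 4.99 and 3.01 CPM at P13 and 7.45 and 6.03 CPM at P30 in bipolars, 0 to 0.475 CPM in rods and 0 to 1.74 CPM in cones, and gave fitted log2 values of 5.004 ± 0.97 at P7, 5.47 ± 0.97 at P13 and 7.04 ± 0.97 at P30 (adjusted p = 0.00106, 3.75e-04 and 3.70e-05). Sema6d had no read in rods at P7 and P13 or in cones at P30, and bipolars were at least 107-fold, at least 91.0-fold and at least 132-fold higher than these. Sema3b had 1.16 and 1.47 CPM at P7, 2.52 and 1.11 CPM at P13 and 10.6 and 10.7 CPM at P30 in bipolars, 0 to 10.3 CPM in rods and 0 to 1.27 CPM in cones, and its call was 5.81 ± 2.22 at P30 (adjusted p = 0.0444). The highest rod value of Sema3b was 1 of the P13 libraries, while the other held no read. Sema3a, the ligand of Nrp1, was called at P7 and P30, with 6.03 ± 1.49 at P7 and 6.96 ± 1.49 at P30 (adjusted p = 0.00641 and 0.00160), from group means of 6.73 and 3.59 CPM in bipolars. Rods at P7 had no read of Sema3a, and bipolars were at least 214-fold higher than them. Sema3c was called at each age, Sema6b and Sema3g at P13 and P30, and each of the 3 averaged at most 6.91 CPM in bipolars. At P13 Sema3g overlapped between bipolars and cones. Of the members called higher in bipolars at any age, Nrp2, Plxnc1, Plxdc1, Sema3b, Sema3c, Sema3e, Sema3g, Sema4a, Sema4d, Sema5a and Sema6d had their highest bipolar means at P30. Over all 11 groups, Sema3e (106 CPM) and Sema6d (10.8 CPM) were highest in rod bipolars and Nrp2 (57.6 CPM) in cone bipolars. The others of these members were highest in bipolars at P30. The Müller glia, vascular, microglial and amacrine sums given above were also highest in bipolars at that age. At P13 the Müller glia sum was 90.9 to 230 CPM in rod bipolars and 328 to 354 CPM in cone bipolars. The part of such cells in these levels was not tested.

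**Figure D2:**
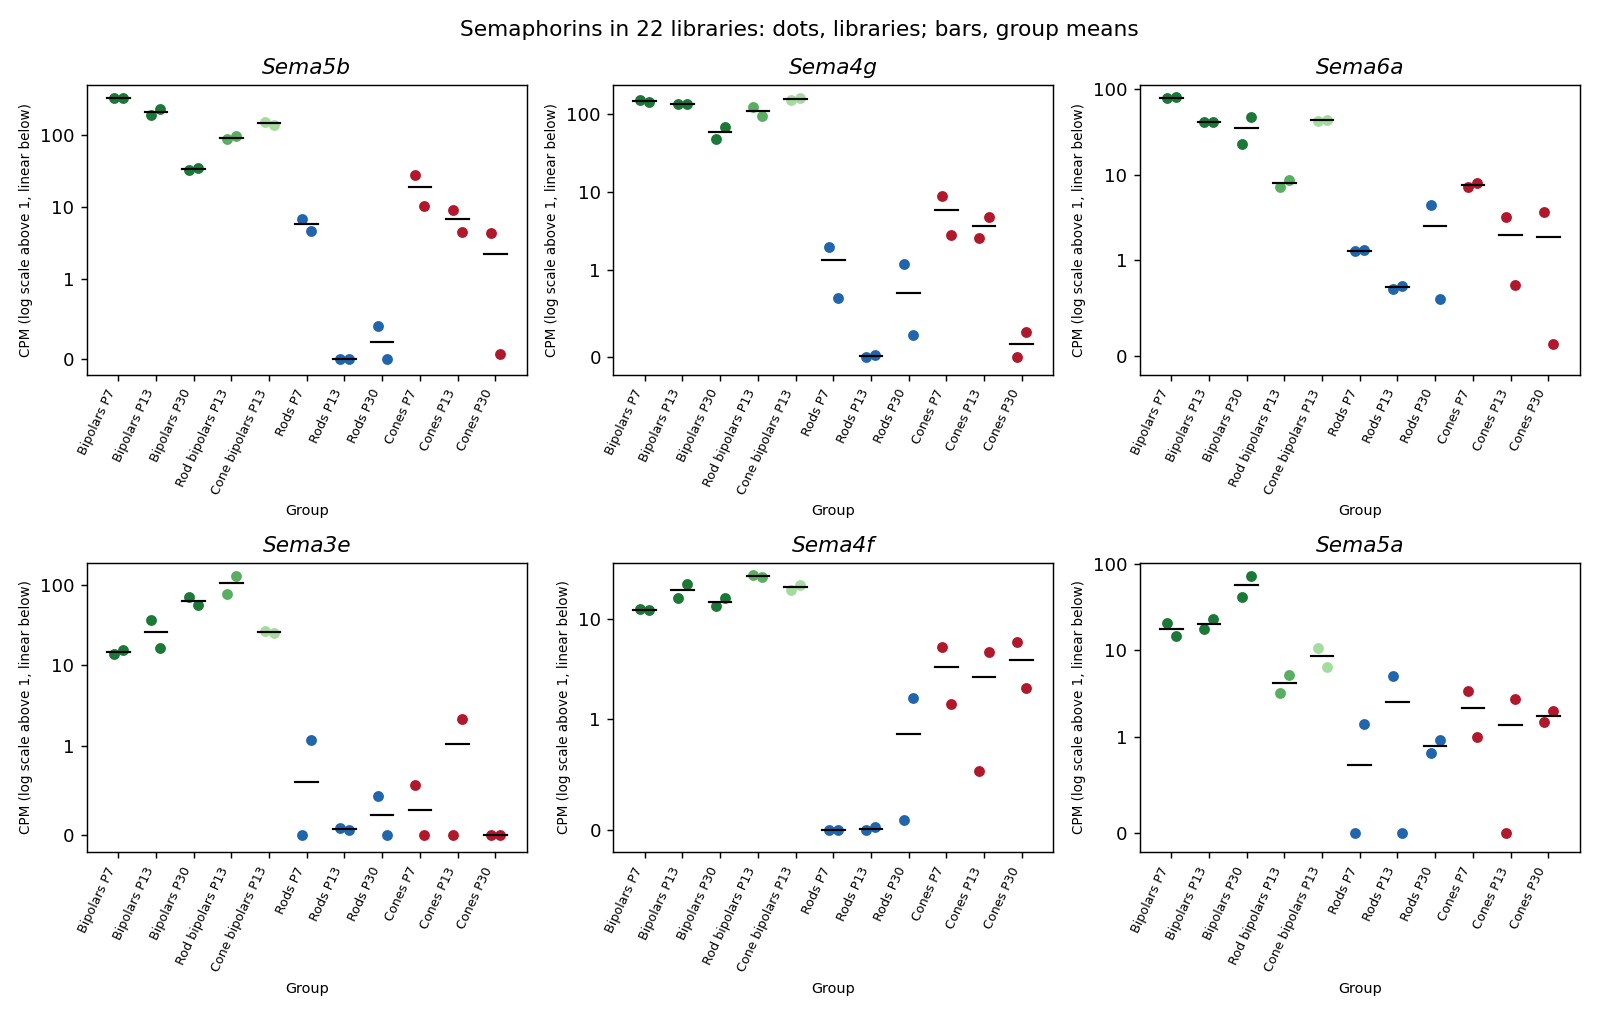
CPM of 6 semaphorins in all 22 libraries (dots) with group means (bars), on an axis that is logarithmic above 1 CPM and linear below. Sema5b and Sema4g stay above 30 CPM in every bipolar library, Sema3e is highest in rod bipolars, and photoreceptor dots mostly lie below 10 CPM.

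On the receptor side, Plxna4 and Plxna3 were higher in bipolars at all 3 ages and Plxna1 at P30. Plxna4, a Sema6a receptor, had 61.1 and 48.3 CPM at P7, 47.5 and 44.4 CPM at P13 and 20.5 and 14.1 CPM at P30 in bipolars. Rods had 4.35 and 0.0219 CPM at P7, 0.176 and 0.101 CPM at P13 and 1.40 and 0.744 CPM at P30, and cones had 4.01 and 0.991 CPM at P7, 0.0464 and 0.765 CPM at P13 and 3.96 and 0 CPM at P30. The groups did not overlap at any age, and log2 fold changes were 6.01 ± 2.05 at P7, 8.08 ± 2.05 at P13 and 5.35 ± 2.05 at P30 (adjusted p = 0.0373, 0.00536 and 0.0455). At P13 both rod bipolar and both cone bipolar libraries, given below, held less Plxna4 than either bipolar library. Plxna4 shares 110 bp of exon with the antisense gene Plxna4os3, so part of its reads could be from that gene.

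Plxna3, a receptor of Sema5a and Sema5b in the retina, had 58.3 and 57.0 CPM at P7, 43.7 and 50.4 CPM at P13 and 30.8 and 48.0 CPM at P30 in bipolars. Rods had 11.5 and 7.32 CPM at P7, 3.76 and 2.44 CPM at P13 and 11.2 and 1.84 CPM at P30, and cones had 38.8 and 44.5 CPM at P7, 13.4 and 15.9 CPM at P13 and 6.49 and 10.3 CPM at P30. It was called at all 3 ages, with 1.56 ± 0.51 at P7, 2.82 ± 0.51 at P13 and 2.66 ± 0.51 at P30 (adjusted p = 0.0294, 4.23e-04 and 6.48e-04). Cones at P7 came closest to the bipolars without reaching them. Plxna1, its partner as a receptor of Sema5a and Sema5b, had 28.2 and 26.0 CPM at P7, 18.9 and 19.9 CPM at P13 and 17.4 and 12.9 CPM at P30 in bipolars, 9.81 and 4.03 CPM at P7, 2.18 and 4.70 CPM at P13 and 0.973 and 0.204 CPM at P30 in rods and 11.1 and 5.17 CPM at P7, 1.07 and 10.8 CPM at P13 and 0 and 1.68 CPM at P30 in cones. Its only call was 6.06 ± 1.49 at P30 (adjusted p = 0.00413), when the photoreceptors were lowest. Plxna1 overlaps Gm26811 on the other strand by 970 bp.

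Plxnc1, the receptor of Sema7a, had 21.1 and 21.1 CPM at P7, 31.0 and 30.9 CPM at P13 and 40.8 and 54.3 CPM at P30 in bipolars. Rods had 0 and 1.93 CPM at P7, 0.0351 and 0 CPM at P13 and 0.0905 and 0.0558 CPM at P30, and cones had 14.4 and 14.6 CPM at P7, 9.30 and 3.62 CPM at P13 and 1.08 and 10.8 CPM at P30. At P13 and P30 bipolars were above photoreceptors, with 6.60 ± 1.54 at P13 and 6.50 ± 1.54 at P30 (adjusted p = 0.00315 and 0.00329), and with cones near bipolars it was not called at the first age (4.01 ± 1.54, adjusted p = 0.0629). Rods at P13 held 1 read of Plxnc1, and bipolars were higher than them by 2112-fold (95% interval 378 to 83470.4). Plxnb2, a receptor of class 4 semaphorins, had 27.7 and 39.1 CPM at P7, 29.6 and 28.7 CPM at P13 and 12.5 and 19.0 CPM at P30 in bipolars, 39.9 and 78.5 CPM at P7, 9.91 and 3.04 CPM at P13 and 8.38 and 7.12 CPM at P30 in rods and 49.1 and 31.9 CPM at P7, 16.0 and 7.14 CPM at P13 and 1.68 and 3.15 CPM at P30 in cones. It was called higher in bipolars at P13 and P30, with 1.93 ± 0.59 at P13 and 1.87 ± 0.59 at P30 (adjusted p = 0.0164 and 0.0182), and at P7 the groups overlapped.

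The co-receptors behaved differently from one another. Nrp2, which binds Sema3f, had 7.58 and 6.56 CPM at P7, 48.0 and 39.4 CPM at P13 and 49.2 and 65.3 CPM at P30 in bipolars. Rods had 0.0201 and 3.22 CPM at P7, 3.55 and 0.126 CPM at P13 and 0.453 and 0 CPM at P30, and cones had 2.61 and 0.667 CPM at P7, 0.626 and 6.70 CPM at P13 and 8.41 and 0 CPM at P30. Its call was 8.89 ± 2.42 at P30 (adjusted p = 0.00800), and the value of 5.19 ± 2.42 at P13 (adjusted p = 0.100) was not called, although both bipolar libraries exceeded all 4 photoreceptor libraries. Nrp1, which binds Sema3a, averaged at most 9.15 CPM in any group and was not called between bipolars and photoreceptors at any age. At P7 its bipolar libraries, at 1.47 and 2.14 CPM, lay below all rod and cone libraries, the lowest of which had 3.33 CPM. Plxdc2, a membrane protein with a plexin-like domain, had 26.3 and 26.4 CPM at P7, 69.0 and 55.7 CPM at P13 and 43.9 and 49.9 CPM at P30 in bipolars. Rods had 0 and 0.0658 CPM at P7, 0.211 and 0 CPM at P13 and 0.838 and 0.0744 CPM at P30, and cones had 4.19 and 0.577 CPM at P7, 0.325 and 1.71 CPM at P13 and 0 and 0 CPM at P30. Its fitted log2 values were 7.12 ± 1.43 at P7, 8.48 ± 1.43 at P13 and 10.06 ± 1.43 at P30 (adjusted p = 0.00144, 2.47e-04 and 5.10e-05), bipolars at P7 were above rods, which held 3 reads, by 839-fold (95% interval 286 to 4075), and at P30 bipolars were at least 922-fold higher than cones. Plxdc1 was called at each age from bipolar means of 0.971, 1.43 and 5.57 CPM.

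**Figure D3:**
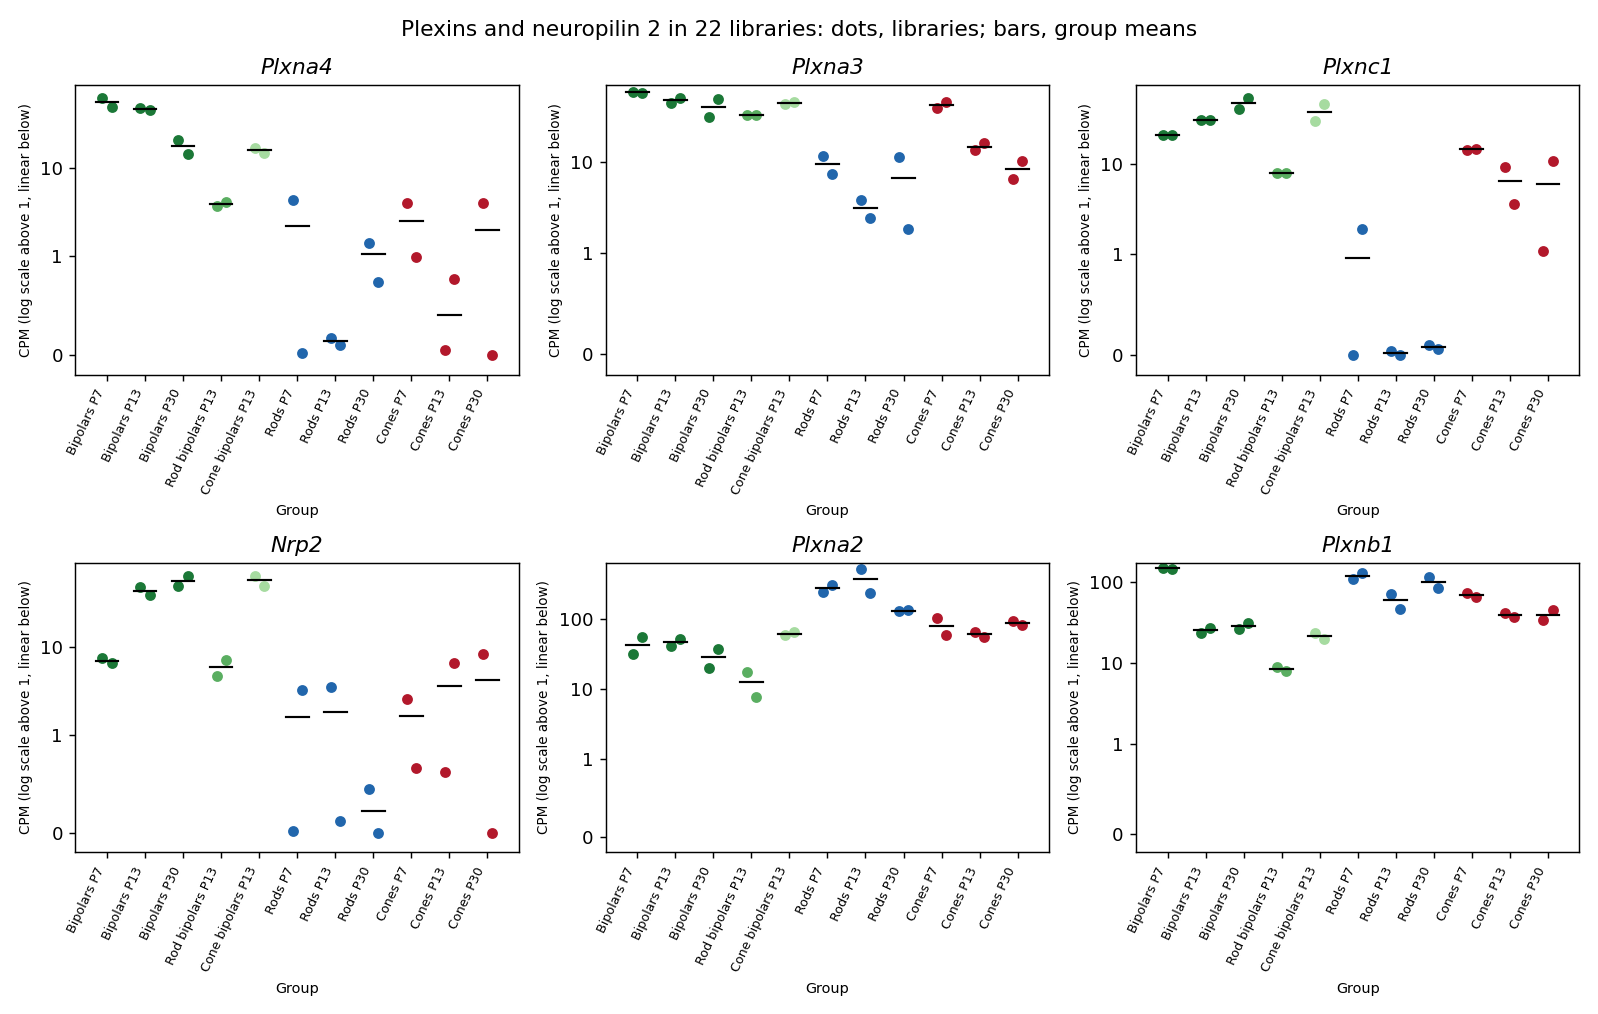
CPM of 5 plexins and Nrp2 in all 22 libraries (dots) with group means (bars), logarithmic above 1 CPM and linear below. Plxna2 is highest in rods, Plxna4, Plxna3 and Nrp2 are highest in bipolars or cone bipolars, and Plxnc1 separates rods from cones.

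Only 4 members were called lower in bipolars than in photoreceptors at any age: Plxna2, Sema3f, Sema7a and Plxnb1. Plxna2 had 31.5 and 54.7 CPM at P7, 40.9 and 52.6 CPM at P13 and 19.7 and 37.2 CPM at P30 in bipolars. Rods had 243 and 311 CPM at P7, 519 and 232 CPM at P13 and 131 and 134 CPM at P30, and cones had 102 and 59.4 CPM at P7, 66.5 and 55.3 CPM at P13 and 93.5 and 82.3 CPM at P30. Rods were far above the other cell types at P7 and P13. Against the mean of rods and cones, bipolars gave -1.82 ± 0.38 at P7, -1.65 ± 0.38 at P13 and -1.99 ± 0.38 at P30 (adjusted p = 0.00174, 0.00263 and 5.84e-04).

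Sema3f, a secreted ligand of Nrp2, had 18.6 and 17.9 CPM at P7, 9.70 and 6.79 CPM at P13 and 8.54 and 9.01 CPM at P30 in bipolars. Rods had 16.3 and 34.4 CPM at P7, 20.6 and 49.5 CPM at P13 and 79.6 and 58.7 CPM at P30, and cones had 72.6 and 45.3 CPM at P7, 42.6 and 48.8 CPM at P13 and 21.5 and 25.8 CPM at P30. Bipolars were lower at P13 and P30, with -2.23 ± 0.38 at P13 and -2.19 ± 0.38 at P30 (adjusted p = 2.70e-04 and 3.06e-04), and overlapped rods at P7. Sema7a, the lipid-anchored ligand of Plxnc1, had 9.31 and 15.8 CPM at P7, 7.66 and 9.45 CPM at P13 and 11.4 and 7.45 CPM at P30 in bipolars, 22.7 and 68.9 CPM at P7, 3.72 and 6.87 CPM at P13 and 12.99 and 5.19 CPM at P30 in rods and 47.2 and 27.4 CPM at P7, 27.1 and 33.8 CPM at P13 and 19.1 and 11.3 CPM at P30 in cones. It was called lower in bipolars once, with -1.64 ± 0.52 at P7 (adjusted p = 0.0268). Plxnb1, the Sema4d receptor, had 149 and 145 CPM at P7, 23.5 and 27.0 CPM at P13 and 26.1 and 30.7 CPM at P30 in bipolars, 109 and 131 CPM at P7, 71.5 and 46.6 CPM at P13 and 115 and 84.1 CPM at P30 in rods and 72.8 and 64.3 CPM at P7, 41.2 and 36.7 CPM at P13 and 34.0 and 44.8 CPM at P30 in cones. It was called lower in bipolars once, with -1.13 ± 0.21 at P30 (adjusted p = 5.84e-04), a call that was lost under scaling by plain read totals. Plxnb1 overlaps Gm7628 on the other strand by 257 bp.

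**Figure D4:**
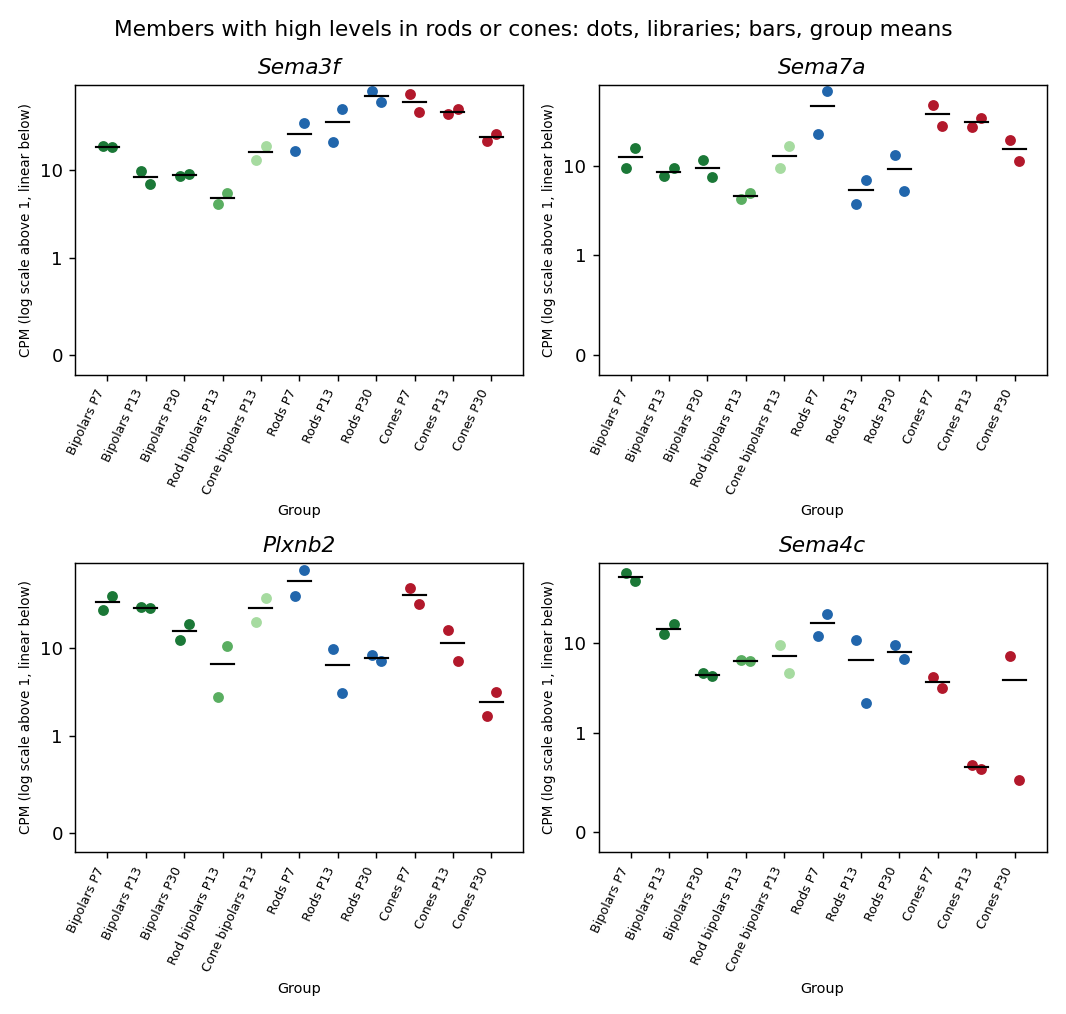
CPM of Sema3f, Sema7a, Plxnb2 and Sema4c in all 22 libraries (dots) with group means (bars), logarithmic above 1 CPM and linear below. Sema3f is lowest in rod bipolars, Sema7a in rods falls between P7 and P13, and Sema4c is highest in bipolars at P7.

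Calls between bipolars and photoreceptors depended on single libraries for part of the members. At P7 the calls of Plxna2, Plxna3, Plxna4, Plxdc1, Sema3a, Sema3e, Sema4c, Sema5b and Sema7a were lost when 1 of the 6 libraries was left out, at adjusted p of 0.0546 to 0.254. At P13 those of Plxnb2, Plxdc1, Sema3e, Sema3g, Sema4c, Sema4d and Sema5a were lost without 1 of Cones P13 replicate 2, Bipolars P13 replicate 1, Bipolars P13 replicate 2, Cones P13 replicate 1 and Rods P13 replicate 2 (0.0503 to 0.249), and at P30 those of Nrp2, Plxna4, Plxnb2, Plxdc1, Sema3b and Sema4f without 1 of the 6 libraries (0.0590 to 0.173). Fitted on the 3 groups of an age alone, 13 of 16 calls were kept at P7, 16 of 22 at P13 and 14 of 24 at P30.

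Between rods and cones, most called members were lower in rods at P7 and P13 and higher in rods at P30. At P7, 1 of 31 was called higher in rods, where 3.30% of all genes were, and 6 lower, against 9.52%. At P13, 2 were higher, against 7.10%, and 9 lower, against 14.1%. At P30, 5 were higher, against 9.98%, and 1 lower, against 10%. Of those higher at P30, Plxdc2, Sema3c and Sema6d were near the floor in rods and had no read in cones. On log2(CPM + 1), 2 members were called higher at P30, against 10.4% of all genes, and 1 lower, against 11.5%, with a member median of 0. Median log2 fold changes of the members were -1.59, -1.58 and 0.91 at P7, P13 and P30, or -1.27, -1.10 and 0.60 with groups without reads at the floor. All genes had -0.16, -0.11 and 0.14. With plain read totals the all-gene median at P30 moved to 0.74, and 9 members were then called higher, against 23.1% of all genes, and 1 lower, against 6.21%.

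Plxna2 was the receptor that set rods apart at the first 2 ages, with log2 fold change 1.82 ± 0.43, adjusted p = 0.00946 at P7 and log2 fold change 2.52 ± 0.43, adjusted p = 6.07e-04 at P13 for rods over cones. Both rod libraries exceeded both cone libraries each time. At P30 the means were 133 CPM in rods and 87.9 CPM in cones, and the gene was not called. Plxnc1 went the other way at all 3 ages, with log2 fold change -6.93 ± 1.78, adjusted p = 0.0153 at P7, log2 fold change -8.37 ± 1.78, adjusted p = 0.00298 at P13 and log2 fold change -5.45 ± 1.78, adjusted p = 0.0355 at P30, its rod values given above all staying at or below 1.93 CPM. Its ligand Sema7a was lower in rods at P13, with 3.72 and 6.87 CPM in rods, against 27.1 and 33.8 CPM in cones (log2 fold change -2.58 ± 0.603, adjusted p = 0.00555). Plxna3 was lower in rods at P7 (log2 fold change -2.18 ± 0.59, adjusted p = 0.0195) and P13 (log2 fold change -2.26 ± 0.59, adjusted p = 0.0102).

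Several ligands that were high in bipolars were lower in rods than in cones at P13. Sema5b had no read in either rod library and was detected in both cone libraries, and cones were at least 154-fold higher. Sema4g, with 1 read in rods (log2 fold change -7.86 ± 1.31, adjusted p = 4.44e-04), and Sema4d (log2 fold change -6.18 ± 1.53, adjusted p = 0.00780) were also lower in rods, and Sema4f was lower at P7, with no read in rods and 5.20 and 1.41 CPM in cones, and at P13. Sema6d had no read in rods at P7 or P13, and cones were at least 46.9-fold higher at P7 and at least 27.0-fold higher at P13. The bipolar marker sum was likewise lower in rods than in cones at P13, at 8.83 to 10.8 CPM in rods and 344 to 389 CPM in cones, with Grm6 at 0 in rods. The part of bipolar RNA in these differences was not tested.

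At P30 Sema3f and Plxnb1 were higher in rods. Sema3f had 79.6 and 58.7 CPM in rods, against 21.5 and 25.8 CPM in cones (log2 fold change 1.54 ± 0.44, adjusted p = 0.0180). Plxnb1 had 115 and 84.1 CPM in rods and 34.0 and 44.8 CPM in cones (log2 fold change 1.33 ± 0.25, adjusted p = 9.76e-04), with no overlap. The other members called higher in rods, Plxdc2, Sema3c and Sema6d, averaged at most 0.456 CPM in rods and had no read in cones. Sema4c was the only semaphorin called higher in rods before P30, at P13, with 10.96 and 2.16 CPM in rods and 0.672 and 0.637 CPM in cones (log2 fold change 2.88 ± 0.97, adjusted p = 0.0388). With only the 4 libraries of each comparison in the fit, 4 of 7 calls were kept at P7, 1 of 11 (Sema5b) at P13 and 1 of 6 (Sema6d) at P30. Leaving out 1 of the 4 libraries ended the calls of Plxna2, Plxna3, Plxnc1, Plxdc2 and Sema3a at P7 (adjusted p of 0.0510 to 0.205), Plxna3 and Sema4c at P13 (0.0639 to 0.250) and Plxnc1, Plxdc2, Sema3c and Sema3f at P30 (0.0757 to 0.289).

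With age, part of the members fell in rods between P7 and P13. Of 31, 9 were called lower at P13 than at P7, where 7.02% of all genes were, and 1 higher, against 5.62%. Sema7a had 3.72 and 6.87 CPM at P13, against 22.7 and 68.9 CPM at P7 (log2 fold change -2.97 ± 0.603, adjusted p = 0.00398). Plxnb2 had 9.91 and 3.04 CPM at P13, against 39.9 and 78.5 CPM at P7 (log2 fold change -3.35 ± 0.68, adjusted p = 0.00398). Both genes were lower in each P13 library than in each P7 library. Nrp1 had 0 and 0.0252 CPM at P13, against 8.50 and 9.80 CPM at P7 (fitted log2 fold change -9.22 ± 2.24, adjusted p = 0.0114). The P13 group held 1 read of Nrp1, and P7 was higher by 622-fold (95% interval 111 to 24607). Plxnb1 fell less (log2 fold change -1.05 ± 0.25, adjusted p = 0.00938), and Sema4a, Sema4d, Sema4g, Sema5b and Sema6b, whose P7 means lay between 0.423 and 6.06 CPM, were lower at P13. Sema3a was the member called higher, with 2.25 and 0.0503 CPM at P13, its 2 libraries far apart, against no read at P7.

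From P13 to P30, 4 members were called higher in rods, where 6.74% of all genes were, and 1 lower, against 5.30%. Plxna2 was the one that fell, to 131 and 134 CPM at P30, against 519 and 232 CPM at P13 (log2 fold change -1.39 ± 0.43, adjusted p = 0.0417). That call was lost under scaling by plain read totals. Sema4d, Sema4f, Sema4g and Sema6d rose to P30 means of 3.32, 0.863, 0.741 and 0.368 CPM. None of the 10 calls from P7 to P13 and none of the 5 from P13 to P30 was kept with only the 2 ages in the fit, in which 0 of all 13405 genes were called. Leaving out 1 library ended the calls of Nrp1, Plxnb1, Sema3a, Sema4d and Sema7a in the first step (adjusted p of 0.0614 to 0.257) and of Plxna2, Sema4d, Sema4f and Sema4g in the second (0.0579 to 0.388). The steps share the P13 libraries.

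Few members were called with age in cones. From P7 to P13, 5 of 31 members had an unadjusted p under 0.05, as did 1305 of all 13405 genes. With voom weights 1 member other than the one named next was lower, against 0.485% of all genes. In the fit of 22 libraries 0 were called higher, against 0.216% of all genes, and 1 lower, against 0.224%. The call was Sema4a, with no read at P13 and 0.559 and 0.577 CPM at P7, and it was lost without any 1 of the 4 libraries (adjusted p of 0.104 to 0.239). From P13 to P30, 0 were higher, against 0.850%, and 4 lower, against 2.35%. An unadjusted p under 0.05 was found for 9 members and for 2534 of all 13405 genes. With voom weights 1 was lower, against 1.39% of all genes. Sema4g had 0 and 0.294 CPM at P30, against 2.60 and 4.89 CPM at P13 (log2 fold change -6.25 ± 1.31, adjusted p = 0.0159). Plxdc2, Sema6b and Sema6d had no read at P30 and were at least 20.0-fold, at least 7.17-fold and at least 23.3-fold higher at P13. Without 1 of Cones P13 replicate 2, Cones P30 replicate 1 and Cones P13 replicate 1, calls of Plxdc2, Sema4g and Sema6b were lost (0.0595 to 0.226).

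In bipolars the age steps held 1 call. From P7 to P13, 0 of 31 members were higher, against 2.30% of all genes, and 1 was lower, against 0.686%. An unadjusted p under 0.05 was found for 3 members and for 1892 of all 13405 genes. With voom weights 2 were lower, against 0.91% of all genes. Plxnb1 had 23.5 and 27.0 CPM at P13, against 149 and 145 CPM at P7 (log2 fold change -2.54 ± 0.25, adjusted p = 1.36e-05), and kept its call under every alternative run. From P13 to P30, 0 were higher, against 1.40%, and 0 lower, against 0.470%. With voom weights 2 were lower, against 0.671% of all genes. In the limma fit of 22 libraries an unadjusted p under 0.05 was found for 0 members and for 1833 of all 13405 genes.

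Larger shifts in bipolars were visible in the libraries without a call in that fit. Sema5b had 32.1 and 35.0 CPM at P30, against 188 and 231 CPM at P13, a log2 fold change of -2.64 ± 1.61 with adjusted p = 0.545. With only the 2 groups in the fit its adjusted p was 0.0354 (-2.64 ± 0.15), and with voom weights 3.62e-04. Sema4c had 12.6 and 16.2 CPM at P13, against 60.6 and 48.9 CPM at P7, and gave -1.93 ± 0.97 with adjusted p = 0.406, or 0.0125 in the fit of 2 groups. Nrp2 had 48.0 and 39.4 CPM at P13, against 7.58 and 6.56 CPM at P7, and gave 2.62 ± 2.80 with adjusted p = 0.834, or 0.00717 with the 2 groups alone. In each of the 3 genes the libraries of one age lay apart from those of the other. The fit of 2 groups also called Plxdc2 higher, and Sema3f and Sema6c lower, from P7 to P13.

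Rod bipolars were set against cone bipolars at P13. Of 31 members, 0 were called higher, against 1.51% of all genes, and 4 lower, against 3.17%. An unadjusted p under 0.05 was found for 7 members and for 2351 of all 13405 genes. With voom weights 1 was higher, against 2.68% of all genes, and 2 lower, against 4.01%. The members' median was -0.67, and that of all genes -0.06. Plxna2 had 17.3 and 7.72 CPM in rod bipolars, against 58.6 and 65.003 CPM in cone bipolars (log2 fold change -2.42 ± 0.43, adjusted p = 0.00294). Plxnb1 had 9.06 and 7.92 CPM in rod bipolars and 23.3 and 20.1 CPM in cone bipolars (log2 fold change -1.35 ± 0.25, adjusted p = 0.00325). The libraries of the subtypes did not overlap for either gene. Sema3f had 4.05 and 5.40 CPM in rod bipolars and 12.98 and 18.7 CPM in cone bipolars (log2 fold change -1.74 ± 0.44, adjusted p = 0.0288). Sema3g had no read in rod bipolars and was at least 8.89-fold higher in cone bipolars.

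In other members the libraries of the subtypes did not overlap, without a call in the fit of 22. Sema3e had 79.0 and 133 CPM in rod bipolars, against 27.2 and 25.8 CPM in cone bipolars, with log2 fold change 1.95 ± 2.70, adjusted p = 0.828. It was the only member called higher in rod bipolars with the 2 groups alone (adjusted p = 0.0382) and with voom weights (0.0167). Plxdc2 had 2.88 and 8.63 CPM in rod bipolars and 64.3 and 72.8 CPM in cone bipolars (log2 fold change -3.78 ± 1.65, adjusted p = 0.240). Nrp2 had 4.73 and 7.11 CPM in rod bipolars and 65.5 and 49.7 CPM in cone bipolars (log2 fold change -3.30 ± 2.80, adjusted p = 0.648). Sema6a had 7.22 and 8.68 CPM in rod bipolars and 43.0 and 43.1 CPM in cone bipolars (log2 fold change -2.44 ± 1.204, adjusted p = 0.314), and its receptor Plxna4 had 3.69 and 4.09 CPM in rod bipolars and 16.8 and 14.5 CPM in cone bipolars. In these last 4 genes both rod bipolar libraries were below both cone bipolar libraries. Sema5b and Sema4g led per kilobase in both subtypes. Sema5b had 87.0 and 96.7 CPM in rod bipolars and 152 and 138 CPM in cone bipolars, and Sema4g had 123 and 95.2 CPM in rod bipolars and 154 and 162 CPM in cone bipolars. The bipolar group at P13 averaged 45.9 CPM of Plxna4 and 210 CPM of Sema5b, above both subtypes. For Nrp2, Plxdc2 and Sema4g that group lay between the subtypes. What sets the bipolar group apart from its subtypes was not tested. With voom weights all 4 calls were lost, with only these 4 libraries in the fit Sema3g alone was kept, and Sema3f and Sema3g were each lost without any 1 of the 4 (adjusted p of 0.0531 to 0.248). Rod bipolar markers summed to 7307 to 8871 CPM in rod bipolars and 373 to 473 CPM in cone bipolars, and cone bipolar markers to 300.1 to 314 CPM in rod bipolars and 812 to 1109 CPM in cone bipolars.

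**Figure D5:**
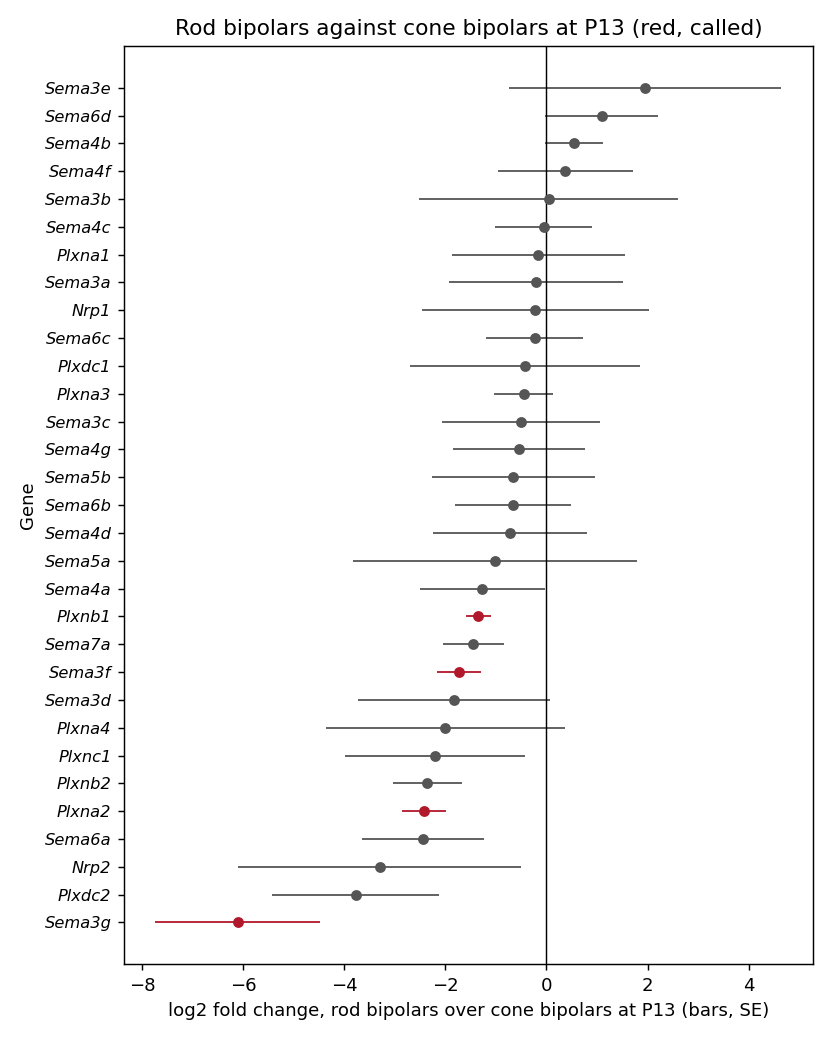
Log2 fold change of each of the 31 genes for rod bipolars over cone bipolars at P13 (points; bars are the SE of the limma fit over 22 libraries; red, called). Most points lie left of 0, Sema3e lies farthest right at 1.95, and the value of Sema3g, which had no read in rod bipolars, depends on the number added before the log.

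The change from P7 to P30 was compared between cell types by interaction terms. Between rods and cones, 3 members were called with a more positive change in rods, where 6.04% of all genes were. There were 0 with a more negative one, against 4.57%. An unadjusted p under 0.05 was found for 9 members and for 3527 of all 13405 genes. With voom weights 3 were higher, against 7.06% of all genes, and 0 lower, against 5.61%. Sema3f had 79.6 and 58.7 CPM in rods at P30 and 16.3 and 34.4 CPM at P7, against 21.5 and 25.8 CPM in cones at P30 and 72.6 and 45.3 CPM at P7, an interaction of 2.81 ± 0.62 (adjusted p = 0.00999). Both P30 libraries were above both P7 libraries in rods, and below them in cones. Without Cones P7 replicate 1 its adjusted p was 0.0606. Between bipolars and photoreceptors, 3 members were called with a more positive change in bipolars, against 6.86% of all genes, and 1 with a more negative one, against 4.27%. The negative one was Plxnb1, at -1.83 ± 0.30 (adjusted p = 0.00101), with means in bipolars of 28.4 CPM at P30 and 147 CPM at P7, against 99.6 and 119.7 CPM in rods and 39.4 and 68.6 CPM in cones.

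Sema4b and Sema6c were not called in any comparison. Sema4b libraries ran from 9.02 to 11.7 CPM in bipolars, 8.58 to 28.6 CPM in rods and 9.37 to 29.5 CPM in cones. Sema6c ran from 2.04 to 13.8 CPM in bipolars, and its rod and cone libraries ran from 0.843 to 19.2 CPM. A missed threshold does not show that levels were the same.

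Genes that act with the semaphorin receptors were taken from a list of 42 co-receptors and downstream genes, of which 34 were tested. In bipolars against photoreceptors 9 were called higher and 1 lower at P7 (all genes, 11.6% and 11.1%), 12 and 2 at P13 (20.6% and 12.8%), and 16 and 2 at P30 (22.6% and 13%). Crmp1, a cytosolic mediator of the response to Sema3a, was higher in bipolars at P7 (5.11 ± 0.42, adjusted p = 2.08e-07). Rnd3, a small GTPase, was higher at each age, with 9.43 ± 1.89 at P30 (adjusted p = 9.64e-04). Rods had no read of Rnd3 at P30, so that fitted size depends on the number added before the log. Dpysl3, of the same family as Crmp1, was lower at each age, by log2 values of -1.36 ± 0.19, -3.11 ± 0.19 and -4.10 ± 0.19 (adjusted p = 7.16e-05, 8.00e-09 and 6.88e-10). Havcr2, a receptor of immune cells, and Trem2, a microglial receptor, were higher at P30, with 9.14 ± 1.76 and 8.35 ± 2.44 (adjusted p = 6.95e-04 and 0.0121), beside microglial marker sums of 154 to 359 CPM in bipolars, 6.81 to 13.03 CPM in rods and 4.12 to 5.30 CPM in cones. Cones had no read of Havcr2 or Trem2 at P30, so the fitted sizes of both depend on the number added before the log.

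Between rods and cones none of the 34 was called higher in rods at any age, and 7, 10 and 8 were lower at P7, P13 and P30, against 9.52%, 14.1% and 10% of all genes. Rods had less Nrcam, a cell adhesion molecule that joins Nrp2 in its receptor complex, at all 3 ages (-8.17 ± 1.42, -6.54 ± 1.42 and -7.53 ± 1.42; adjusted p = 0.00100, 0.00340 and 0.00119). L1cam, which joins Nrp1, was lower at P13 (-7.99 ± 1.14, adjusted p = 1.13e-04) and P30 (-3.98 ± 1.14, adjusted p = 0.0181). Within cell types, Dpysl3 fell in bipolars at both age steps (-1.86 ± 0.22 and -1.36 ± 0.22; adjusted p = 1.03e-04 and 0.00416) and was the only gene of the list called there. In rods 1 rose and 3 fell from P7 to P13, where 5.62% of all genes rose and 7.02% fell, and 2 rose and 3 fell from P13 to P30, where 6.74% rose and 5.30% fell, counts near these shares. In cones 0 were called at either step, and between rod and cone bipolars only Dpysl4 was, lower in rod bipolars (-2.24 ± 0.57, adjusted p = 0.0289).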

How the data were processed

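Sorted cells of mouse retina gave 22 libraries in 11 groups of 2, grouped by the titles in the labels. The submitters' processing notes name STAR, edgeR and the builds GRCm38 and mm10, without versions. The deposited values are log2 CPM, for which the authors used effective library sizes of 0.608 to 1.23 times the recovered totals (14.4 to 54.4 Mreads). A gene with no reads has -7.10 in every library. With that floor removed, 100.0% of values lay within 0.01 of whole reads. Symbols are from the supplied gene name table (13785 of 13812 IDs matched; the others were not tested), and positions and exons from GENCODE M21.

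Tests used limma 3.58.1 in R 4.3.3 with an intensity trend, 1 coefficient per group, all 22 libraries and 11 residual degrees of freedom. The step was run on simulated data for rods against cones at P7, with each gene given the same spread in all groups. The libraries differ from that setting, so the simulation does not cover the unequal spreads described above. Genes with log2 CPM of at least 0 in both libraries of a group were tested (13405, with 380 left out). The design of 15 comparisons covers bipolars against photoreceptors, rods against cones, ages, bipolar subtypes and interactions. Group floors of 3 reads lay between 0.0275 and 0.0766 CPM.

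The members, the gene lists and the tests were chosen with earlier results of these data known. Library values are given for members with a mean of at least 10 CPM in a group and at least 1 call, and others by ranges. The pathway list's named genes were among the 3 largest calls in each direction. Marker lists not cited in the text summed, over all groups, to 3.95 to 125 CPM (ganglion), 2.27 to 1614 (horizontal, mostly Prox1 in bipolars), 0 to 16.6 (astrocyte), 0 to 13.8 (pigment epithelium) and 0.0186 to 169 (red blood cell). Alternatives were no filter, log2(CPM + 1), plain read totals, only the compared groups, a replicate block, voom weights and leaving out each library.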

Additional observations from a re-analysis of the deposited data

Results flagged for a closer look

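For 7 members the change from P7 to P30 differed between cell types by the limma interaction test, 3 of 31 between rods and cones (all genes, 6.04% higher and 4.57% lower) and 4 of 31 between bipolars and photoreceptors (6.86% and 4.27%). Between rods and cones, Plxdc2 (11.26 ± 2.34, adjusted p = 0.00717), Sema3f (2.81 ± 0.62, adjusted p = 0.00999) and Sema6d (13.29 ± 1.58, adjusted p = 1.15e-04) had the more positive log2 change in rods. Plxdc2 averaged 0.456 CPM at P30 and 0.0329 CPM at P7 in rods, against 0 and 2.38 CPM in cones. Sema6d averaged 0.368 and 0 CPM in rods at P30 and P7, against 0 and 1.47 CPM in cones. The fitted sizes for these 2 genes, and for Sema3g, Sema4a and Sema6b, depend on the number added before the log.

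Between bipolars and photoreceptors, Plxnb1 had the more negative change in bipolars (-1.83 ± 0.30, adjusted p = 0.00101), and Sema3g (6.84 ± 1.99, adjusted p = 0.0344), Sema4a (7.36 ± 1.52, adjusted p = 0.00518) and Sema6b (5.29 ± 1.40, adjusted p = 0.0223) the more positive one. Sema4a averaged 10.3 CPM at P30 and 3.02 CPM at P7 in bipolars, against 0 and 0.605 CPM in rods and 0.0200 and 0.568 CPM in cones. Sema6b averaged 1.73 and 3.21 CPM in bipolars against 0 and 0.423 CPM in rods and 0 and 0.720 CPM in cones. Sema3g was lost without any 1 of 10 libraries, and Sema6b without any 1 of the 4 bipolar ones (adjusted p of 0.0502 to 0.153). Between P7 and P30 the Müller glia, vascular, microglial and amacrine marker sums in bipolars were higher at the later age, and their part in the Sema3g and Sema4a values was not tested.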

How the results depend on the processing

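Of 118 calls over all comparisons, 38 were kept under every alternative run, 80 were lost under at least 1, and 0 changed sign. A replicate block kept 118 of 118, so it moved no count (14 higher and 2 lower in bipolars against photoreceptors at P7, as without it). The replicate numbers share only a number: over 55 pairs of groups the correlation of same-numbered deviations ran from -0.142 to 0.193, median 0.00685. Without a filter 117 were kept, with plain read totals 116, with voom weights 100, with log2(CPM + 1) 88 and with only the compared groups 56. Below, numbers of members called are given by comparison, and the cause was not tested.

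With only the compared groups, the number was 1 for rods against cones at P13 (11 in the fit of 22 libraries), 1 at P30 (6), 0 for rods P13 against P7 (10), 0 for rods P30 against P13 (5), 0 for cones P13 against P7 (1), 0 for cones P30 against P13 (4), 6 for bipolars P13 against P7 (1), 1 for bipolars P30 against P13 (0) and 1 for the interaction of rods and cones (3). In the rod and cone age steps 0 of all 13405 genes were called in these fits. For rods against cones, 491 of all genes were called at P13 (2843 in the fit of 22 libraries) and 863 at P30 (2684). All-gene counts were 1559 for bipolars P13 against P7 (400) and 286 for bipolars P30 against P13 (250). The interaction of rods and cones had 652 (1422). With log2(CPM + 1) it was 3 for rods against cones at P30, 6 and 1 for the rod steps, 0 and 1 for the cone steps, 2 for bipolars P30 against P13, 10 for rod against cone bipolars (4), 1 for the interaction of rods and cones and 8 for that of bipolars and photoreceptors (4). All-gene counts with log2(CPM + 1) were 2940 for rods against cones at P30, 1792 and 1623 for the rod steps and 95 and 422 for the cone steps. They were 936 for bipolars P30 against P13 and 1251 for rod against cone bipolars (628). The interactions had 1348 for rods and cones and 2896 for bipolars and photoreceptors (1492). Plain read totals gave 10 for rods against cones at P30 and 7 for their interaction, against 3923 and 2337 of all genes. Voom weights gave 3 for rods against cones at P30, 3 for rods P30 against P13, 1 for cones P30 against P13, and 2 for each bipolar step. Of all genes, voom weights called 2901, 1936 and 346 in the first 3 of these, and 401 and 332 in the bipolar steps.

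Leaving out 1 library at a time, the number ran from 3 to 6 for rods against cones at P7, 9 to 12 for rods against cones at P13, 5 to 7 for rods against cones at P30, 8 to 15 for bipolars against photoreceptors at P7, 16 to 24 for bipolars against photoreceptors at P13. It ran from 18 to 24 for bipolars against photoreceptors at P30, 5 to 11 for rods P13 against P7, 3 to 7 for rods P30 against P13, 0 to 0 for cones P13 against P7, 2 to 7 for cones P30 against P13. It ran from 1 to 1 for bipolars P13 against P7, 0 to 0 for bipolars P30 against P13, 2 to 3 for rod against cone bipolars, 2 to 7 for the interaction of rods and cones and 2 to 7 for the interaction of bipolars and photoreceptors.

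At the depth of these libraries, 3 reads over a group are 0.0275 to 0.0766 CPM, and lower levels were not detectable.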
